A study of Mus musculus with 6 samples.

Results

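The 10 genes described here mark the alveolar fibroblasts of the mouse lung, including the lipid-laden ones called lipofibroblasts, together with the growth factor that signals to them. They were found by symbol in a table of 55335 genes, each symbol matched 1 row, and all 10 passed the filter on low counts that left 17075 genes. Bulk RNA-seq was made from whole lungs of 6 embryos at embryonic day 18. The 3 Gata4 CKO embryos carried Prx1Cre with 1 floxed and 1 deleted Gata4 allele (F/D), and the 3 control embryos carried Prx1Cre with 1 floxed and 1 intact allele (F/+), so Cre was present in both groups. Prx1Cre is active in the lateral plate mesoderm, from which connective tissue of the diaphragm arises, and per the design text the mutants had defects of the diaphragm, small lungs and less proliferation of lung cells, whereas the controls formed both organs normally. Lung epithelium comes from endoderm, outside that lineage, so whole-lung RNA holds much that the transgene does not reach. By the labels, such cells still differed in genotype, F/D in Gata4 CKO lungs and F/+ in control lungs. The question put to these genes is whether the fibroblasts that line the future alveoli differed in RNA between such lungs and control lungs.

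Alveolar fibroblasts are interstitial cells that sit beside alveolar type 2 cells. Epithelial cells, above all those of the alveolar type 1 lineage, secrete platelet-derived growth factor A (PDGF-A), which acts as a dimer on the receptor PDGFRα on neighbouring fibroblasts. In the late fetal lung, cells with that receptor give rise both to myofibroblasts, which lay down elastin where alveolar septa form, and to lipofibroblasts, which store neutral lipid and pass it to type 2 cells for surfactant. Loss of PDGF-A in mice leaves lungs without alveolar septa, which is why the ligand and the receptor are described with the fibroblast markers.

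None of the 10 genes passed the threshold between Gata4 CKO and control lungs (0 of 10, edgeR quasi-likelihood test, Benjamini-Hochberg adjustment over all genes, threshold 0.05). Over all tested genes the share called was also 0%, and the share with an unadjusted p under 0.05 was 8.68% (4.91% lower), where the members had 0 of 10. Of the 10 log2 fold changes, 6 were positive and 4 negative, with a median of 0.08 beside 0.01 over all tested genes, of which 48.5% were negative. Their extremes were 0.34 (Tcf21 and Plin2) and -0.33 (Pdgfra). The groups did not overlap for 2 of the 10, Pdgfa and Plin2, both higher in Gata4 CKO, where the background was 16.8% in either direction, 7.69% higher and 9.08% lower. DESeq2 called 0 of the 10 and 0.691% of all genes. Voom with quality weights, which gave Gata4 CKO 1 the least weight, called 3 of the 10 (Pdgfa, Limch1 and Col13a1), and it called 26.1% of all genes, close to that share. Together the 10 genes took 0.704%, 0.724% and 0.743% of all reads in Gata4 CKO 1, 2 and 3, against 0.666%, 0.685% and 0.784% in controls 1, 2 and 3. The spread of the controls thus enclosed the 3 mutant libraries, with controls 1 and 2 below them and control 3 above. Mfap4 gave 79519 and Scn7a 14592 of the 146747 member reads in Gata4 CKO 1. There they lay on opposite sides of the control mean, at 0.62 and -1.14 on the log2 scale. The sum therefore says little about single genes. In whole-lung RNA, fewer cells of a type and less RNA per cell cannot be told apart.

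Total counts ranged from 15156415 to 29749277 in Gata4 CKO libraries and from 20851989 to 30848948 in controls. Gata4 itself had 117, 76 and 97 reads in the 3 libraries labelled Gata4 CKO, against 84, 63 and 90 reads in controls 1, 2 and 3. Its log2 fold change of 0.49 ± 0.28 (SE, edgeR adjusted p = 0.671) was positive, so the deletion is not visible in whole-lung counts of the targeted gene. Counts over a whole gene also hold exons outside a deleted part, and every direction below rests on what the libraries are labelled. One library, Gata4 CKO 1, stood apart in a way that touches most of the 10 genes. Among genes of at least 1 CPM (counts scaled to library size, with TMM factors), those with at least 6598 bases of exon had a median log2 deviation of -0.45 from the control mean in that library, and those with at most 2528 bases had 0.39. In Gata4 CKO 2 the same medians were 0.05 and 0.002, and in Gata4 CKO 3 they were 0.02 and 0.01. Results are therefore given with and without Gata4 CKO 1, and with the trend by length and GC content removed. The column names also carry a number of unstated meaning, which Gata4 CKO 1 shares with controls 1 and 2 and which otherwise differs between the groups. Without Gata4 CKO 1 this number and the group cannot be told apart. Control 3 also stood apart from controls 1 and 2. Its log2 levels correlated at 0.990 with Gata4 CKO 3 and 0.985 with Gata4 CKO 2. Its correlations with controls 1 and 2 were 0.986 and 0.982. Among the controls, voom gave control 3 the least quality weight (0.46, against 3.34 for control 1 and 1.86 for control 2).

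Upstream sequences are shown for the receptor gene, for Tcf21 and for Scn7a, because the study removes a GATA factor and because Tcf21 encodes a factor that binds E-boxes. RefSeq windows (GRCm38.p6) were given for 8 of the 10 genes, 12 windows in all, and were read from base 250 to base 21 before the start. Capitals mark GATAA on either strand (TTATC where it lies on the opposite strand) and the E-box letters CANNTG, which do not overlap here. The windows lie at chr5:75152001-75152230 on the plus strand (Pdgfra), chr10:22820164-22820393 on the minus strand (Tcf21) and chr2:66784931-66785160 on the minus strand (Scn7a), and each is written in the direction of its gene.
Pdgfra: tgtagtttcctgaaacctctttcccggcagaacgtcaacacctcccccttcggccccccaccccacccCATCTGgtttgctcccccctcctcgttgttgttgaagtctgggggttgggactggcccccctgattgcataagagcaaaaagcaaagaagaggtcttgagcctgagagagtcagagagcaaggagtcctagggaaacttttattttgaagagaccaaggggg
Tcf21: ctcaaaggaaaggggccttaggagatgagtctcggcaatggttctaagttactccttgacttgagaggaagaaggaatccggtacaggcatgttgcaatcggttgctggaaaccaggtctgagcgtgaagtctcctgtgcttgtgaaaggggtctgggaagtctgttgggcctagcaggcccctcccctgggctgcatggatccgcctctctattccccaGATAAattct
Scn7a: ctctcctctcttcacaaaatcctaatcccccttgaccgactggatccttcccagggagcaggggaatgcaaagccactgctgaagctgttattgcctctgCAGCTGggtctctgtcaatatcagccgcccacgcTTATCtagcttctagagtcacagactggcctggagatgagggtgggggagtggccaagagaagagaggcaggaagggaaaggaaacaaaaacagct
GATAA stood 30 bases before the RefSeq start of Tcf21, and on the opposite strand 116 bases before the RefSeq start of Scn7a. These were the 2 windows of the 12 that held it, and 21.5% of all 32851 RefSeq windows of this length did. The GENCODE annotation, used for the gene coordinates below, places the start of Tcf21 further out, at base 22820174. By those coordinates the GATAA of Tcf21 lies within the gene and not before it. CANNTG was in 6 of the 12 windows, among them those of Pdgfra (182 bases before the start) and Scn7a (150 bases), and in 63.5% of all windows. A match is a description of letters, and no binding was measured.

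The ligand gene Pdgfa (ENSMUSG00000025856, chromosome 5, 138976014 to 138997370, minus strand, GRCm38) was slightly higher in Gata4 CKO lungs, without passing the test. It had 66.1, 58.6 and 63.3 CPM in Gata4 CKO 1, 2 and 3, against 51.6, 55.4 and 58.4 CPM in controls 1, 2 and 3. All 3 mutant libraries lay above all 3 controls, but Gata4 CKO 2 was above control 3 by only a narrow margin. Its log2 fold change was 0.18 ± 0.13 (SE, 95% interval -0.12 to 0.49, edgeR adjusted p = 0.725). Without Gata4 CKO 1 it was 0.15, and with the length and GC trend removed it was 0.14. An exon of the antisense gene 6330403L08Rik overlaps Pdgfa, and its reads cannot be told apart without knowing how strand was handled in counting. Summed over 7 markers of alveolar type 1 cells, a main source of the ligand, the level was 3861 to 4089 CPM in Gata4 CKO and 3759 to 4506 CPM in controls, overlapping ranges.

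The receptor gene Pdgfra (ENSMUSG00000029231, chromosome 5, 75152292 to 75198215, plus strand), whose upstream window is the first printed above, leaned the other way. Its values were 186, 317 and 332 CPM in Gata4 CKO 1, 2 and 3, against 347, 327 and 373 CPM in controls 1, 2 and 3. Gata4 CKO 1 was far below the rest, Gata4 CKO 2 was just under the lowest control, and Gata4 CKO 3 lay among the controls. The log2 fold change was -0.33 ± 0.23 (SE, 95% interval -0.86 to 0.21, edgeR adjusted p = 0.724). Without Gata4 CKO 1 it was -0.10, with a 95% interval from -0.31 to 0.10. Within a library, Pdgfa had 0.354, 0.185 and 0.191 reads per Pdgfra read in Gata4 CKO 1, 2 and 3, against 0.149, 0.169 and 0.157 in controls 1, 2 and 3. The ratio was thus highest in the library whose long genes were low, and Pdgfra has 10024 bases of exon against 3119 for Pdgfa. How far that trend enters the ratio was not tested. Markers of smooth muscle and of myofibroblasts, the latter arising from Pdgfra-positive cells, summed to 1037 to 1105 CPM in Gata4 CKO and 1174 to 1491 CPM in controls. The part of these cells in the Pdgfra values was not tested. Exons of Mir7025, Gm42802 and Gm42803 overlap those of Pdgfra.

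In the whole PDGF family of 7 ligand and receptor genes, these included, none passed in either direction. The log2 fold changes were positive for 1 (Pdgfa) and negative for 6, with a median of -0.09, and of -0.21 without Gata4 CKO 1. Pdgfd, a ligand that acts mainly on PDGFRβ, had 10.3, 10.7 and 11.3 CPM in Gata4 CKO 1, 2 and 3, against 14.6, 15.8 and 13.9 CPM in controls, and its groups did not overlap. Pdgfd had a log2 fold change of -0.46 ± 0.16 (SE, edgeR adjusted p = 0.529). Pdgfb, the endothelial ligand that recruits pericytes, stood at -0.27 with all libraries and at -0.58 without Gata4 CKO 1, where its edgeR adjusted p was 0.068.

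**Figure D1:**
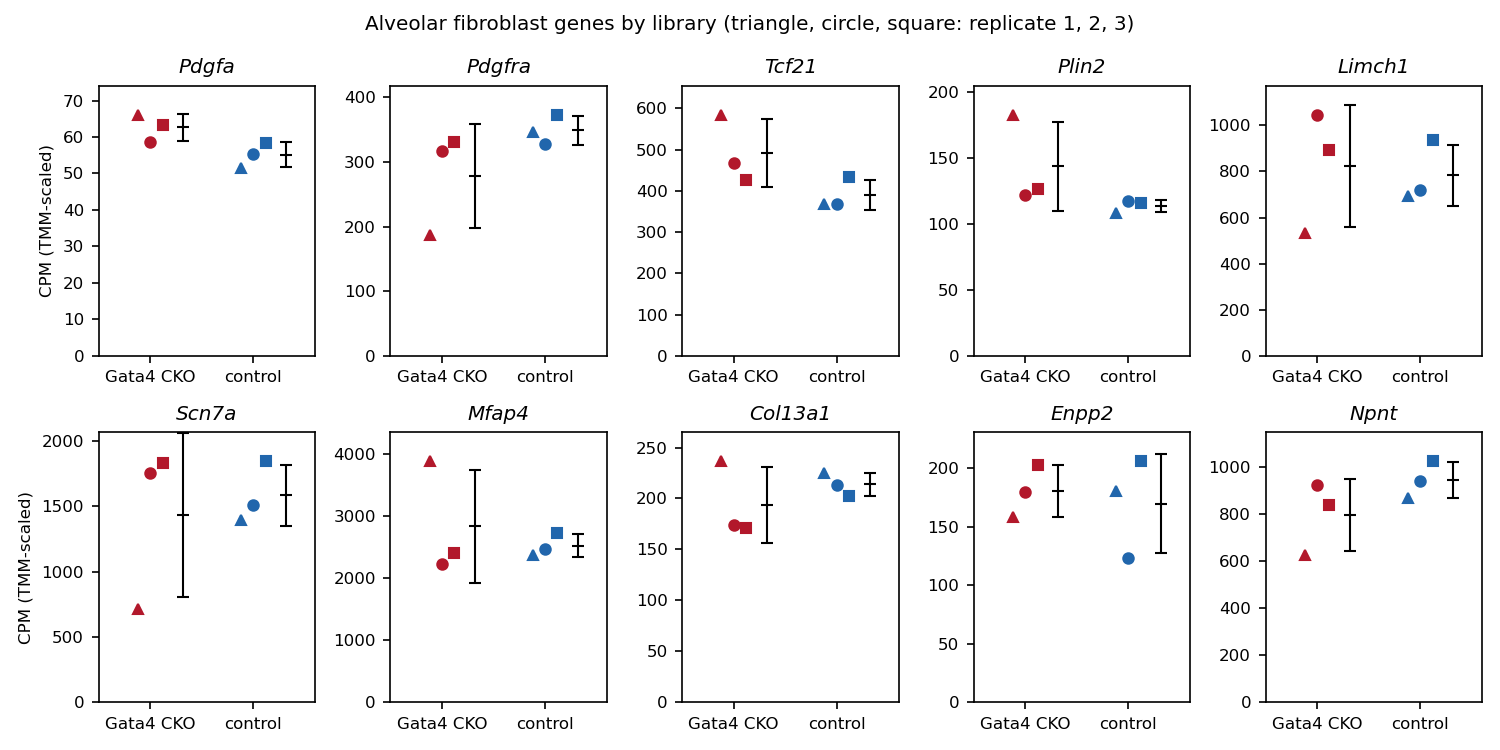
CPM on TMM-scaled library sizes (vertical axes, from 0) of each of the 10 genes in the 3 Gata4 CKO libraries (left) and the 3 control libraries (right), with the mean and SD of each group. Gata4 CKO 1 (red triangle) is the lowest of the mutant libraries for Pdgfra, Limch1, Scn7a, Enpp2 and Npnt and the highest for the other 5 genes.

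Tcf21 (ENSMUSG00000045680, chromosome 10, 22817281 to 22820174, minus strand) encodes a basic helix-loop-helix transcription factor of lung and kidney mesenchyme that is needed for lung branching in mice. It had 584, 466 and 426 CPM in Gata4 CKO 1, 2 and 3, against 369, 367 and 433 CPM in controls 1, 2 and 3. Of the controls, control 3 alone reached the range of the mutant libraries, where it exceeded Gata4 CKO 3. This gave a log2 fold change of 0.34 ± 0.18 (SE, 95% interval -0.08 to 0.75, edgeR adjusted p = 0.643), and it was 0.20 without Gata4 CKO 1.

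Plin2 (ENSMUSG00000028494, chromosome 4, 86648386 to 86670060, minus strand) encodes perilipin 2, which coats lipid droplets and is the usual stain for lipofibroblasts. It had 183, 122 and 126 CPM in Gata4 CKO 1, 2 and 3, against 108, 117 and 116 CPM in controls 1, 2 and 3. The groups did not overlap, and Gata4 CKO 1 lay far above the other 5 libraries. The mean was 144 ± 33.9 CPM in Gata4 CKO and 114 ± 4.65 CPM in controls (SD, n = 3 each). This gave a log2 fold change of 0.34 ± 0.19 (SE, 95% interval -0.09 to 0.76, edgeR adjusted p = 0.660). Without Gata4 CKO 1 it was 0.13, and with the trend removed it was 0.29, with an edgeR adjusted p of 0.385. Perilipin 2 is also made by type 2 cells and macrophages. Summed markers of those cells were 18486 to 25605 CPM in Gata4 CKO and 11003 to 18364 CPM in controls for 7 type 2 genes, and 153 to 169 CPM in Gata4 CKO and 114 to 138 CPM in controls for 5 macrophage genes. The type 2 ranges were apart by a narrow margin, and without Sftpc the other 6 genes summed to 8558 to 10149 CPM in Gata4 CKO and 4966 to 8634 CPM in controls, which overlap. Control 3 was the highest control with and without Sftpc. Of the 7 type 2 genes, 2 had groups that did not overlap, as had 4 of the 5 macrophage genes, all higher in Gata4 CKO. Over all tested genes that share was 7.69% higher and 16.8% in either direction. The part of these cells in the Plin2 values was not tested. All 6 markers of fat tissue were under 1 CPM in every library, and Lep was at 0 reads throughout.

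Other genes of lipid storage, uptake and their regulation, receptor genes among them, leaned the same way as Plin2. Of 16 tested, 15 had positive log2 fold changes and 1 had a negative one, with a median of 0.37 beside 0.01 over all genes, and none passed in either direction. Without Gata4 CKO 1, 13 were positive and 3 negative, with a median of 0.37. With the trend removed, 14 were positive. Lpl encodes the lipoprotein lipase that frees fatty acids for uptake. It had 94.1, 159.5 and 129 CPM in Gata4 CKO 1, 2 and 3, against 70.6, 60.4 and 93.2 CPM in controls 1, 2 and 3. All mutant libraries were above all controls, but Gata4 CKO 1 only narrowly exceeded control 3. Lpl had a log2 fold change of 0.77 ± 0.24 (SE, edgeR adjusted p = 0.529). Abhd5, a co-activator of the lipase that empties lipid droplets, stood at 0.57 and at 0.71 without Gata4 CKO 1. Pparg, the nuclear receptor of fat cell and lipofibroblast differentiation, stood at 0.67 on a level of 8.15 ± 0.589 CPM in Gata4 CKO and 5.10 ± 2.05 CPM in controls (SD, n = 3 each). Fabp5, a fatty acid-binding protein that type 2 cells also make, stood at 0.74, and at 0.44 without Gata4 CKO 1. The type 2 and macrophage marker sums given above stand beside these genes as well, and their part was not tested.

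The remaining members are further genes by which alveolar fibroblasts are recognised, and the fold changes of the first 3 depended most on Gata4 CKO 1. Scn7a (ENSMUSG00000034810, chromosome 2, 66673425 to 66784914, minus strand) encodes a sodium channel that does not open with voltage as its relatives do. It had 713, 1758 and 1834 CPM in Gata4 CKO 1, 2 and 3, against 1397, 1510.1 and 1844 CPM in controls 1, 2 and 3. Gata4 CKO 1 was far under the lowest control, whereas the other mutant libraries lay between control 2 and control 3. The log2 fold change was -0.14 ± 0.34 (SE, 95% interval -0.94 to 0.65, edgeR adjusted p = 0.929), and it was 0.18 without Gata4 CKO 1. Limch1 (ENSMUSG00000037736, chromosome 5, 66745827 to 67057158, plus strand), which encodes an activator of non-muscle myosin, had 532, 1045 and 895 CPM in Gata4 CKO 1, 2 and 3, against 695, 719 and 937 CPM in controls 1, 2 and 3. Limch1 had a log2 fold change of 0.07 ± 0.27 (SE, 95% interval -0.55 to 0.69, edgeR adjusted p = 0.954), and 0.31 without Gata4 CKO 1 (95% interval -0.03 to 0.65). Mfap4 (ENSMUSG00000042436, chromosome 11, 61485431 to 61488900, plus strand), a glycoprotein of elastic fibres that binds integrins, had 3885, 2224 and 2408 CPM in Gata4 CKO 1, 2 and 3, against 2376, 2475 and 2734 CPM in controls 1, 2 and 3. Mfap4 had a log2 fold change of 0.17 ± 0.25 (SE, 95% interval -0.40 to 0.73, edgeR adjusted p = 0.870), and -0.12 without Gata4 CKO 1. An exon of Mapk7 overlaps that of Mfap4 on the opposite strand.

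Col13a1 (ENSMUSG00000058806, chromosome 10, 61838236 to 61979108, minus strand), a collagen that spans the plasma membrane and marks a large fibroblast class of the mouse lung, was the member for which the mutant libraries other than Gata4 CKO 1 were furthest from the controls on the low side. It had 236, 174 and 171 CPM in Gata4 CKO 1, 2 and 3, against 225, 214 and 202 CPM in controls 1, 2 and 3. Gata4 CKO 2 and 3 lay below every control and Gata4 CKO 1 above every control. With all libraries the log2 fold change was -0.14 ± 0.17 (SE, 95% interval -0.54 to 0.26, edgeR adjusted p = 0.839). Without Gata4 CKO 1 it was -0.31 (95% interval -0.49 to -0.12), with an edgeR adjusted p of 0.0916, and DESeq2 on those 5 libraries gave an adjusted p of 0.0234, in a fit that called 10.2% of all genes and 1 of the 10. With the length and GC trend removed as well, it was -0.15 (edgeR adjusted p = 0.360). Its transcript had the highest GC content of the 10, at 59.1%.

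Npnt (ENSMUSG00000040998, chromosome 3, 132881745 to 132950291, minus strand) encodes nephronectin, a basement membrane ligand of integrin α8β1 that type 1 cells also make. It had 626, 923 and 838 CPM in Gata4 CKO 1, 2 and 3, against 870.1, 941 and 1024 CPM in controls 1, 2 and 3. Gata4 CKO 1 and 3 were under every control and Gata4 CKO 2 was among them. Npnt had a log2 fold change of -0.25 ± 0.19 (SE, 95% interval -0.70 to 0.20, edgeR adjusted p = 0.744), and -0.10 without Gata4 CKO 1. All 5 genes fixed as its partners had negative values, with a median of -0.39, and none passed; without Gata4 CKO 1 the median was -0.15, with 4 negative. Fras1, a basement membrane protein that holds nephronectin in place, had 84.6, 109.8 and 119.8 CPM in Gata4 CKO 1, 2 and 3, against 194, 205 and 189 CPM in controls, a log2 fold change of -0.90 ± 0.17 (SE, edgeR adjusted p = 0.529). It was lower past the threshold without Gata4 CKO 1 (-0.77, edgeR adjusted p = 0.0308, where 0.656% of genes were called), and also with the trend removed from those 5 libraries (edgeR adjusted p = 0.0413). Its relatives Frem2 and Frem1 stood at -0.49 and -0.39 with all libraries and at -0.35 and -0.15 without Gata4 CKO 1. The receptor subunits Itgb1 and Itga8 stood at -0.17 and -0.06, and Itga8 was at 0.12 without Gata4 CKO 1.

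Enpp2 (ENSMUSG00000022425, chromosome 15, 54838901 to 54952892, minus strand) encodes autotaxin, the secreted enzyme that makes lysophosphatidic acid (LPA). It had 158, 179.8 and 203 CPM in Gata4 CKO 1, 2 and 3, against 180.1, 123 and 206 CPM in controls 1, 2 and 3. The groups overlapped widely, and control 2 was the lowest library. Enpp2 had a log2 fold change of 0.09 ± 0.21 (SE, 95% interval -0.40 to 0.58, edgeR adjusted p = 0.929). Exons of Enpp2 and of the antisense gene Gm26684 overlap. Among 8 tested LPA receptors and LPA-degrading phosphatases, 4 were positive and 4 negative, the median was -0.01 and none passed; without Gata4 CKO 1 the median was -0.12. The receptor gene Lpar4 had 15.6, 26.5 and 28.6 CPM in Gata4 CKO 1, 2 and 3, against 54.2, 59.2 and 31.3 CPM in controls, without overlap, and a log2 fold change of -1.03 ± 0.30 (SE, edgeR adjusted p = 0.529). Lpar1, the receptor most tied to lung fibroblasts, stood at -0.28, Lpar6 at 0.30 and the phosphatase Plpp3 at -0.19, also without overlap. Of the 8 genes, 1 was without overlap on the high side and 3 on the low side. Over all tested genes those shares were 7.69% and 9.08%.

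**Figure D2:**
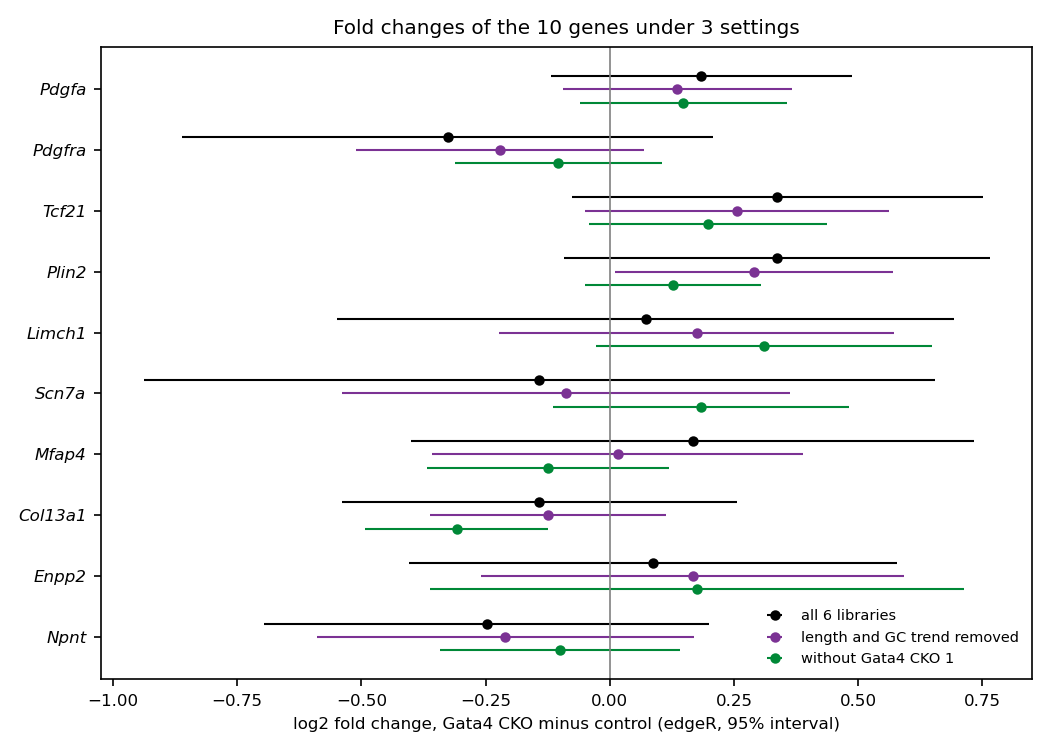
Log2 fold changes of Gata4 CKO minus control with 95% intervals (horizontal axis, edgeR) for the 10 genes, with all 6 libraries (black), with the length and GC trend removed (purple) and without Gata4 CKO 1 (green). With all libraries every interval crosses 0; the intervals of Plin2 with the trend removed and of Col13a1 without Gata4 CKO 1 do not, and neither gene passed after adjustment over all genes.

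Read against their exonic lengths, the 10 genes fell into 2 sets in Gata4 CKO 1. The 5 longest, from 5026 bases (Npnt) to 10263 bases (Limch1), were all below the control mean in that library, at -0.59 for Npnt, -0.07 for Enpp2, -1.14 for Scn7a, -0.90 for Pdgfra and -0.55 for Limch1 on the log2 scale. The 5 shortest, from 1922 bases (Mfap4) to 4605 bases (Col13a1), were all above it, at 0.62 for Mfap4, 0.59 for Tcf21, 0.26 for Pdgfa, 0.68 for Plin2 and 0.15 for Col13a1. In Gata4 CKO 2 and 3 no such split was present: Limch1 and Scn7a were above the control mean in both and Mfap4 below it in both. With the trend of all genes removed, Gata4 CKO 1 stood at -0.45 for Scn7a, -0.44 for Pdgfra and -0.53 for Npnt, and at 0.52 for Plin2 and 0.43 for Tcf21. Mfap4 was at 0.26, and all distances but that of Enpp2 (0.30) were smaller than before. Set against controls 1 and 2 alone, the libraries that carry its number, Gata4 CKO 1 stood at -0.84 for Pdgfra, -1.01 for Scn7a, -0.52 for Npnt, 0.68 for Tcf21, 0.71 for Plin2 and 0.32 for Pdgfa, with 1 library on one side and so no test. With that number as a term in the edgeR fit, 8 of the 10 were called, all but Col13a1 and Enpp2, along with 42.8% of all genes, and there the group effect rests on the same 3 libraries. Over the 6 libraries, the genes whose log2 levels ran closest to Pdgfra were Zfp609, Nhsl1 and Celsr2, with root mean square differences of 0.03 to 0.04, and those closest to Tcf21 were Itm2b, Pierce1 and Tmem50a (0.03 each), chosen by likeness among 10402 genes of at least 10 CPM. For Pdgfa they were Nsmf (0.02), Rabep2 (0.04) and Ttc5 (0.04).

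**Figure D3:**
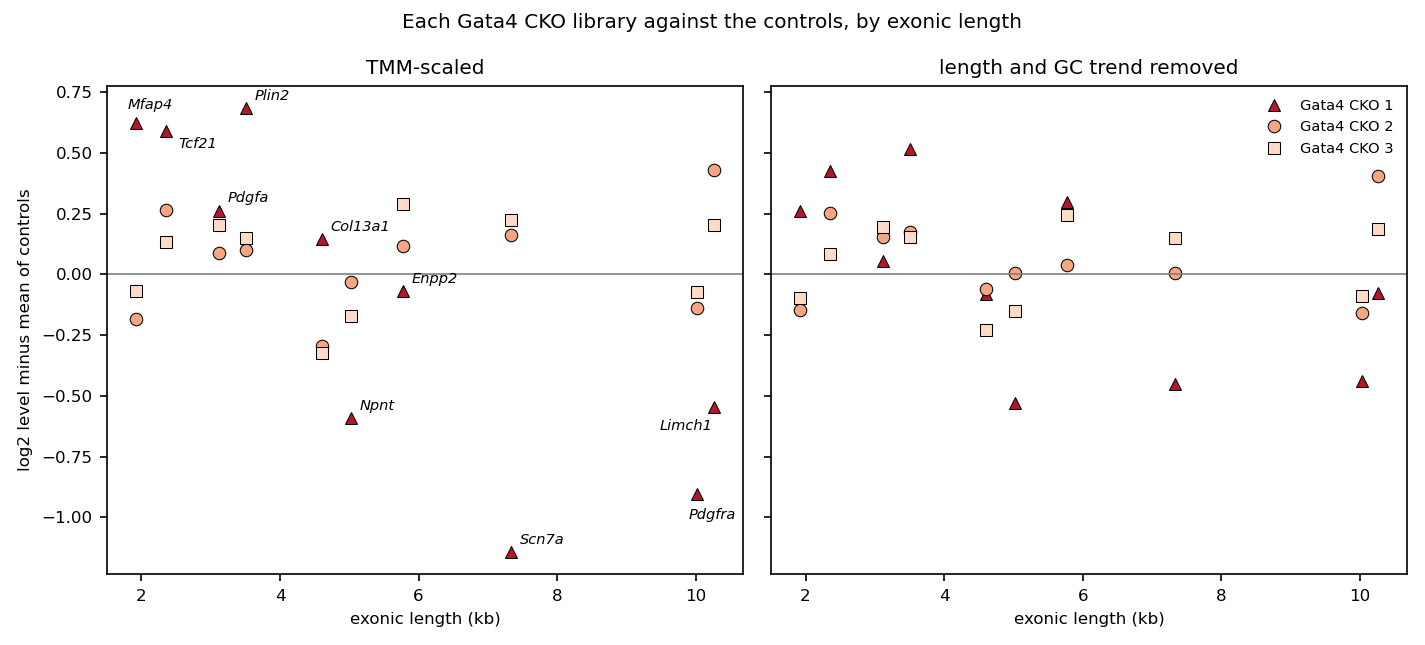
Log2 level of each Gata4 CKO library minus the mean of the 3 controls (vertical axis) against exonic length in kilobases (horizontal axis) for the 10 genes, on TMM-scaled values (left) and with the trend of all genes by length and GC content removed (right). Triangles of Gata4 CKO 1 lie above 0 for the 5 shortest genes and below 0 for the 5 longest on the left, and are closer to 0 for most genes on the right.

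Per length, Mfap4 was the most abundant of the 10 in both groups, at 1477 ± 474 CPM per kilobase of exon in Gata4 CKO and 1315 ± 96.1 in controls (SD, n = 3 each), and its range did not touch that of the next gene. Scn7a, Npnt and Tcf21 followed. In Gata4 CKO, Tcf21 came next at 209.5 ± 35.0, then Scn7a at 196 ± 85.4 and Npnt at 158 ± 30.4 CPM per kilobase, with ranges that overlapped from each to the next. In controls the order was Scn7a at 216 ± 31.7, Npnt at 188 ± 15.3 and Tcf21 at 166 ± 15.8 CPM per kilobase, again with overlap between neighbours. Limch1 and Col13a1 took the next places in both groups, each apart from the gene above. Plin2, Enpp2 and Pdgfra were close together at 40.9, 31.2 and 27.8 CPM per kilobase in Gata4 CKO and 32.4, 29.4 and 34.8 CPM per kilobase in controls. Pdgfa, a ligand gene of other cells, was lowest at 20.1 ± 1.21 in Gata4 CKO and 17.7 ± 1.08 CPM per kilobase in controls.

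**Figure D4:**
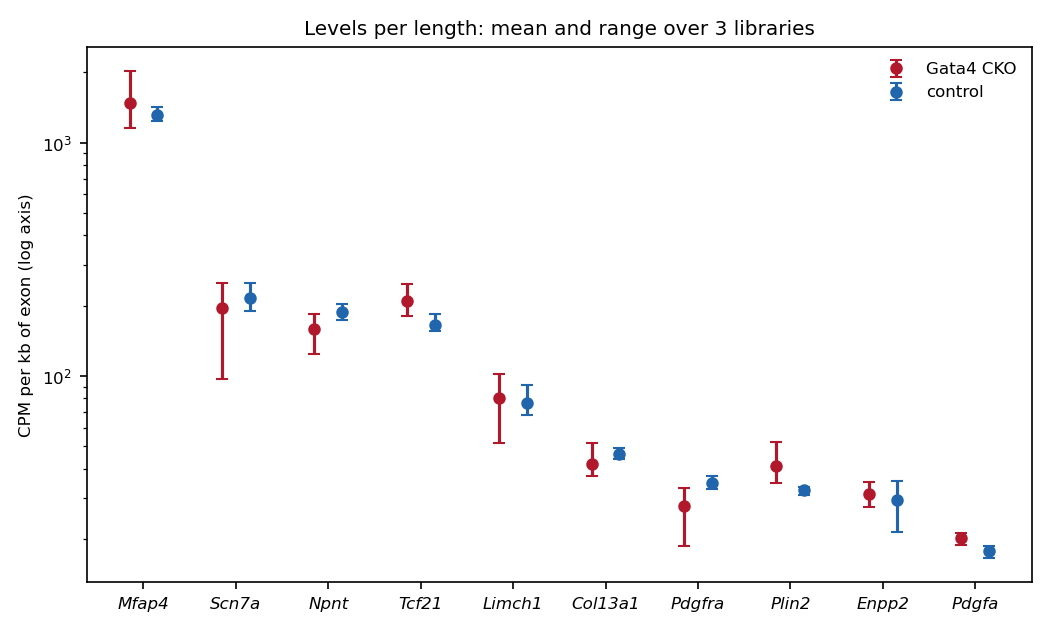
Level per exonic length (CPM per kilobase, log axis) of the 10 genes in Gata4 CKO (red, left of each pair) and control (blue) lungs, as mean and range over 3 libraries each, ordered by the control mean. Mfap4 is highest and Pdgfa lowest in both groups, and the ranges of the groups overlap for all genes but Plin2 and Pdgfa.

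Other genes of alveolar fibroblasts also had values on both sides of 0, with 5 of 12 positive, 7 negative, a median of -0.03 and none past the threshold. Meox2, Fgf10 and Wnt2, which encode a homeobox factor and secreted signals of the lung mesenchyme, stood at 0.01, -0.05 and -0.01. A pair of enzymes stood well above the rest of that list. Ces1d, a carboxylesterase that hydrolyses stored lipid, had 621, 639 and 539.7 CPM in Gata4 CKO 1, 2 and 3, against 307, 299 and 436 CPM in controls 1, 2 and 3. All mutant libraries were above all controls, with a log2 fold change of 0.79 ± 0.20 (SE, edgeR adjusted p = 0.529) and 0.76 without Gata4 CKO 1. Inmt, a methyltransferase of mature lung fibroblasts, had 179, 274 and 151 CPM in Gata4 CKO 1, 2 and 3, against 23.9, 13.3 and 119 CPM in controls 1, 2 and 3, where control 3 was much closer to the mutant libraries than to the other controls. Inmt had a log2 fold change of 1.95 ± 0.74 (SE, edgeR adjusted p = 0.543). Vegfd, which encodes a growth factor of lymphatic vessels, stood at -0.44 with every Gata4 CKO library below every control, and Cebpb, a factor of fat cell differentiation, stood at -0.15.

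Genes of mesenchyme in general and of the sister lineage of myofibroblasts had mostly negative values. Of 11 general mesenchymal genes, 9 were negative, with a median of -0.18, and none passed. With Gata4 CKO 1 left out, 8 were negative, the median was -0.42 and 1 (Lum) was called higher, where 0.656% of all genes were called. Their summed level was 7459 to 9574 CPM in Gata4 CKO and 10110 to 10546 CPM in controls, without overlap. The type I collagen chains Col1a1 and Col1a2 stood at -0.61 ± 0.21 and -0.55 ± 0.19 (SE, edgeR adjusted p = 0.529 each), with all Gata4 CKO libraries below all controls. The proteoglycans Lum and Dcn stood at 0.88 and 0.62, and at 1.20 (edgeR adjusted p = 0.0499) and 0.89 (0.0509) without Gata4 CKO 1. With the trend removed from those 5 libraries as well, Lum stood at 1.03 and no longer passed (edgeR adjusted p = 0.0915). Of 12 myofibroblast and smooth muscle genes, 9 were negative, with a median of -0.34, and none passed. Lgr6, a receptor of myofibroblasts, had 7.23, 5.56 and 6.54 CPM in Gata4 CKO 1, 2 and 3, against 23.6, 31.5 and 10.9 CPM in controls, a log2 fold change of -1.76 ± 0.37 (SE, edgeR adjusted p = 0.529). Myh11, Tgfbi and Fgf18 stood at -0.73, -0.72 and -0.34. The difference between these lists and the alveolar fibroblast genes was not tested.

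**Figure D5:**
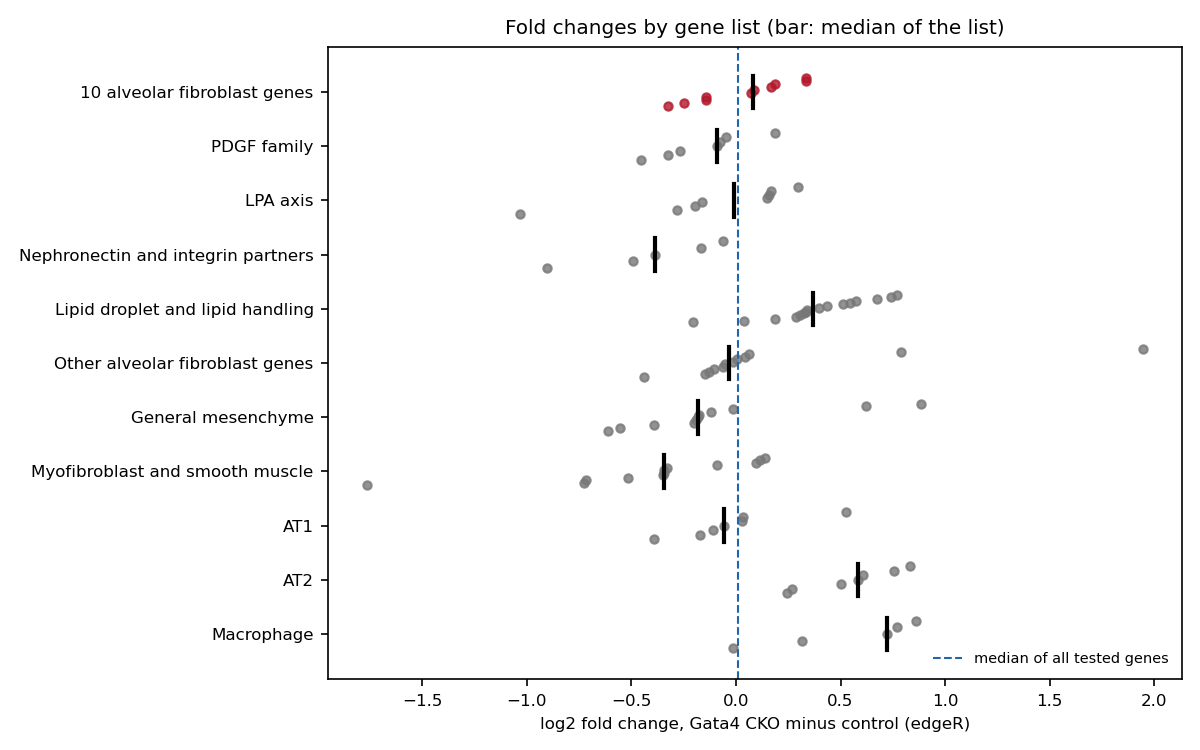
Log2 fold changes of Gata4 CKO minus control (horizontal axis, edgeR, all 6 libraries) of the tested genes in 11 lists, 1 point a gene, with the median of each list (black bar) and of all tested genes (dashed line, 0.01). The 10 alveolar fibroblast genes (red) lie between -0.33 and 0.34, on both sides of the dashed line; the lipid list lies mostly to its right.

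Markers of other cells in the lung gave the setting for these values. Median log2 fold changes were 0.58 for type 2 cells, 0.72 for macrophages, -0.06 for type 1 cells, 0.03 for pericytes and 0.06 for mesothelium. They were 0.32 for adventitial fibroblasts, -0.11 for endothelium, 0.44 for cardiomyocytes and -1.15 for 6 proliferation genes. Of the 7 adventitial genes, 5 were positive and 2 negative, and Col14a1 was among the negative ones at -0.41. Leaving out Gata4 CKO 1 gave medians of -0.19 for type 1 cells, -0.19 for pericytes (all 6 genes negative, where 3 were with all libraries), 0.19 for mesothelium, 0.10 for adventitial fibroblasts, -0.25 for endothelium, 0.43 for type 2 cells, 0.65 for macrophages, 0.43 for cardiomyocytes and -1.22 for proliferation genes. Summed proliferation genes were at 188 to 294 CPM in Gata4 CKO and 320.2 to 718 CPM in controls. Control 3 had 320.2 CPM, against 690 and 718 CPM in controls 1 and 2. Among cartilage, Schwann cell and neuron, skeletal muscle and hepatocyte markers, at most 3 genes a list passed the filter on low counts. With all 6 libraries none of these marker genes passed. Without Gata4 CKO 1, where 0.656% of all genes were called, the pericyte gene Cspg4 passed, at -0.86 (edgeR adjusted p = 0.0443). With the trend removed from those 5 libraries Cspg4 did not pass (-0.74, edgeR adjusted p = 0.0676).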

How the data were processed

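The deposited table gives raw read counts per Ensembl gene in 6 libraries, per the file headers. The labels' protocols name a stranded mRNA kit. STAR 2.7.10a, featureCounts 2.0.1 and DESeq2 1.36.0 appear in the submitters' processing notes, as do GRCm38 and mm10. How strand was handled in counting is not given in the sources used here, so reads of overlapping antisense genes cannot be told apart.

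Of the 55335 rows, 23377 had no symbol and 23239 were named by gene ID from a reference table. The filter on low counts was filterByExpr (at least 10 in enough libraries, at least 15 in all). Counts were scaled by TMM and tested over all genes, Gata4 CKO minus control, with edgeR 4.0.16 (R 4.3.3, two-sided, robust quasi-likelihood test, Benjamini-Hochberg threshold 0.05). The SE is the log2 fold change divided by the square root of F, and intervals are 95%. Lengths are unions of GENCODE M21 exons on GRCm38. The length and GC trend was fitted per library with splines of 5 degrees of freedom for 99.9% of tested genes and used as an offset. DESeq2 1.42.0 and limma 3.58.1 (voom, with and without quality weights), other scaling and filters, covariates and leaving out each library were alternatives. The code was tested on simulated counts with the group and library sizes of these data. Of 200 changed genes, edgeR called 0% at 1.5-fold, 30.5% at 2-fold and 93.5% at 4-fold, with 0, 4 and 10 false calls. The simulated spread depended only on a gene's level, with no length trend and no library standing apart. Rates in the real libraries may therefore differ. The members were estimated at 0.80-fold (Pdgfra) to 1.26-fold (Tcf21 and Plin2), so 0 of 10 called does not show that they were unchanged. An exact permutation test of 3 against 3 cannot go below p = 0.1.

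All 10 members are named, and for each other list up to 4 genes with the smallest p, with a few more chosen after their values were seen (Itga8, Meox2, Fgf10 and Wnt2). Members and lists were chosen with earlier results of these data known. The labels call the libraries biological replicates.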

Additional observations from a re-analysis of the deposited data

How the results depend on the processing

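Pdgfa, Tcf21 and Plin2 stayed positive and Pdgfra and Npnt negative under all 18 alternatives run. The number of genes called was 0 with edgeR on all libraries (1482 at an unadjusted p under 0.05), 110 with DESeq2, 0 with limma-voom, 4460 with limma-voom and quality weights and 7308 with the column-label number as a term, a fit in which the group effect rests on Gata4 CKO 1 and controls 1 and 2. It ranged from 0 to 115 with each library left out (115 without Gata4 CKO 1), and was 18 without Gata4 CKO 1 and with the length and GC trend removed and 1606 with DESeq2 without Gata4 CKO 1, both chosen after the data were seen. The number of members called was 3 with quality weights (Pdgfa, Limch1 and Col13a1), 8 with the label number as a term, 1 with DESeq2 without Gata4 CKO 1 (Col13a1, where 10.2% of all genes were called) and 0 to 0 with each library left out. The members' median ranged from -0.04 to 0.22 with each library left out, and the number with groups that did not overlap from 3 to 4, against 2 with all libraries; over all genes that share was 16.8% with all libraries and 20.3% to 43.7% with one fewer (4 members without Gata4 CKO 3). With quality weights Scn7a and Mfap4 had 0.28 and -0.031, without Gata4 CKO 1 0.18 and -0.12, with DESeq2 without it 0.18 and -0.13, and with the trend removed without it 0.058 and -0.13. With the label number as a term Limch1 and Col13a1 had -0.41 and 0.11. With each library left out, Limch1 ranged from -0.13 to 0.31 (-0.01 without control 1), Scn7a from -0.36 to 0.18, Mfap4 from -0.12 to 0.33 and Enpp2 from -0.10 to 0.25 (-0.005 without Gata4 CKO 3). The causes were not tested.

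Correlations of same-numbered deviations were 0.11, -0.32 and 0.10. With 3 libraries a group they cannot decide whether the replicate numbers pair the libraries. With a replicate block 0 genes and 0 members were called. With 3 libraries a group, intervals were wide (from -0.94 to 0.65 for Scn7a), so differences within them were not detectable at this spread. The count of 0 genes from edgeR also held under RLE scaling, with no filter on low counts, with Xist as a covariate and with the length and GC trend removed.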
